A study of Naumovozyma castellii with 14 samples.

Results

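Cycloheximide in wild-type cells of the budding yeast Naumovozyma castellii was followed across all features measured by strand-specific total RNA-seq. The comparison set the 2 treated wild-type libraries (WT CHX) against the 4 untreated ones (WT), which makes 6 of the 14 libraries of the series. The 6 libraries come from strain YAM2478 with the genotype MATalpha ura3-1 ho, grown in the rich medium YPD at 25 °C to an OD600 of 0.5. WT CHX cultures received cycloheximide at 100 µg/mL for 15 min. For the comparison of responses, strain YAM2890 carries the same markers and upf1::kanMX6, and was sequenced after the same treatment (upf1 CHX, 2 libraries) and without it (upf1, 4 libraries). The last 2 libraries are from untreated cells of a dcr1 upf1 strain and enter the fit alone. The labels list the replicates separately without saying that they were separate cultures, so the p-values measure the spread between these libraries, which may be technical. The model is 1 strain, 1 dose and 1 time. No vehicle is named for the untreated cells, and those libraries serve as the background.

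Cycloheximide binds the large ribosomal subunit and stops ribosomes from moving along the mRNA. Decay of mRNA in yeast is tied to translation: nonsense-mediated decay (NMD) needs a ribosome that terminates early, and mRNAs held on stalled ribosomes are in general protected from decapping and from the exonuclease Xrn1. Blocking translation also lets short-lived proteins, repressors among them, run out while transcription goes on. The roles of genes given here are those known in Saccharomyces cerevisiae. RNA levels alone cannot tell slower decay from more transcription, and in bulk cultures more RNA per cell and a change in the make-up of the population cannot be told apart.

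The table held 8343 distinct features, of which 7518 had a mean density of at least 0.02 reads per nucleotide and were tested. WT CHX libraries held 13509980 to 14220444 reads, and WT libraries 7895089 to 11172687. A density is a read count divided by the size factor of its library and by the length of the feature, and the deposited size factors track the snoRNAs. A fold change under the deposited scaling is therefore relative to the snoRNAs, and the text also gives it relative to the mRNAs, after each library was divided by its median mRNA ratio. NAM7, the gene for Upf1, was read in all 6 libraries, with 2584 and 2335 reads in WT CHX, against 1601, 1279, 1074 and 1474 reads in WT. WT replicates 1 and 2 stood apart from WT replicates 3 and 4: log2 densities correlated at 0.993 and 0.991 within these pairs and at 0.982 to 0.984 across them, over features. The WT CHX group has replicates 1 and 2 alone.

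Most RNAs were denser after cycloheximide when the deposited scaling was kept, with 5344 of 5446 mRNAs, 741 of 768 XUTs and 735 of 852 CUTs higher. Smaller shares were called higher in other classes, with 63 of 117 SUTs, 189 of 283 tRNAs and 3 of 7 mitochondrially encoded mRNAs. The median log2 fold change was 1.22 for tRNAs, 0.58 for SUTs and 0.77 for the mitochondrially encoded mRNAs. Limma with Benjamini-Hochberg adjustment called 7075 of 7518 features higher in WT CHX, which is 94.1%, and 11 lower, which is 0.146%. At least 2-fold higher were 5515 features, or 73.4%. The median log2 fold change of the 5446 mRNAs tested was 1.35. For the 37 snoRNAs, which guide the modification of ribosomal RNA and do not leave the nucleus, it was −0.04.

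The share of reads per class showed the same shift without any scaling. mRNAs took 89.2% and 89.1% of the reads in the WT CHX libraries, against 83.5%, 82.9%, 83.4% and 84.3% in the WT libraries. snoRNAs took 3.98% and 3.94% in WT CHX, against 6.33%, 7.08%, 8.12% and 7.55% in WT. Neither class overlapped between the groups. The difference was 5.66 percentage points for mRNAs and −3.31 for snoRNAs (two-sided exact permutation p = 0.0667 for each, the smallest that 2 libraries against 4 allow; 0.12 adjusted over 9 classes). Transcripts of CUTs (cryptic unstable transcripts, which the nuclear exosome degrades) took 0.440% ± 0.00645 in WT CHX and 0.256% ± 0.00789 in WT, and XUTs (Xrn1-sensitive unstable transcripts) 0.947% ± 0.00218 and 0.683% ± 0.0349 (SD, n = 2 and n = 4). SUTs (stable unannotated transcripts) went the other way, with 4.01% ± 0.117 in WT CHX and 6.12% ± 0.178 in WT. Ribosomal RNA, which was depleted before sequencing, split the untreated libraries. It made up 1.26% and 1.19% of the reads in WT CHX, against 3.02%, 2.56%, 0.789% and 0.564% in WT.

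**Figure D1:**
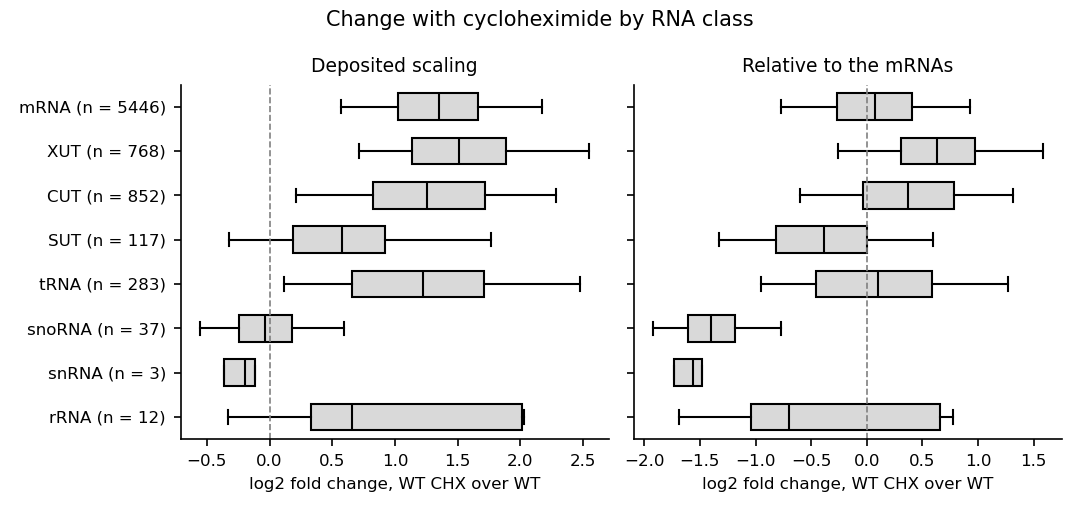
Log2 fold change of WT CHX over WT for the tested features of each RNA class, under the deposited scaling on the left and relative to the mRNAs on the right. Boxes run between the quartiles with a line at the median, whiskers run from the 5th to the 95th percentile, and n is the number of features. The mRNA median is 1.35 under the deposited scaling, with snoRNAs at −0.04; relative to the mRNAs, XUTs have a median of 0.63 and snoRNAs of −1.40.

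Relative to the mRNAs the changes ran both ways. Limma called 2656 features higher in WT CHX (35.3%) and 1529 lower (20.3%), of which 531 (7.06%) and 140 (1.86%) changed at least 2-fold. Among the 5446 mRNAs, 1845 were higher (33.9%) and 1350 lower (24.8%), and these shares are the background for the gene groups below. The choice of factor moves the whole scale: the median over all features was 0.15 with the median mRNA ratio, 0.50 when total mRNA reads were used in its place and −0.03 with quantile normalization. With total mRNA reads 4544 features were higher and 576 lower, and with quantile normalization 1533 and 1691. Among replicates 1 and 2 alone the counts were 3100 and 1968.

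The mRNAs with the largest gains had different known roles and WT densities on both sides of the mRNA median of 0.269. AGA2 encodes the adhesion subunit of the cell-surface a-agglutinin and is described with the mating-type genes. HOR7, a small gene of the osmotic stress response (NCAS_0C00650, chromosome 3, 103337 to 103519, in coordinates of the deposited table, which names no build), had densities of 2.65 and 2.52 in WT CHX, against 0.0807, 0.0507, 0.0804 and 0.0394 in WT. ARO10, the decarboxylase that turns amino acid breakdown products into fusel aldehydes (NCAS_0A11830, chromosome 1, 2347016 to 2348929), had 1.13 and 1.09 in WT CHX, against 0.0375, 0.0329, 0.0224 and 0.0213 in WT. For SPO24, a small gene induced in sporulation (NCAS_0E03080, chromosome 5, 611844 to 612014), the densities were 12 and 13.1 in WT CHX, against 0.66, 0.573, 0.438 and 0.548 in WT. These genes were named by a rule that takes only features whose groups do not overlap relative to the mRNAs. That holds for 67.0% of all tested features. The treated libraries of these genes lay close together. Relative to the mRNAs their log2 fold changes were 3.76 for HOR7 (SE 0.58; limma, adjusted p = 0.000184), 3.39 for ARO10 (SE 0.15; adjusted p = 1.66e-08) and 3.11 for SPO24 (SE 0.15; adjusted p = 2.58e-08).

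DIC1, the carrier of dicarboxylates across the inner mitochondrial membrane, followed at 2.85 relative to the mRNAs, with 8.24 ± 0.427 in WT CHX and 0.434 ± 0.0634 in WT (SD, n = 2 and n = 4). AAT1, the mitochondrial aspartate aminotransferase, followed at 2.82, with 6.30 ± 0.320 in WT CHX and 0.334 ± 0.0376 in WT. Of the 12 mRNAs that gained most among those at or above the median mRNA density in treated cells, 4 have no gene name in the sources used here: NCAS_0G02180 (2.68), NCAS_0A10640 (2.67), NCAS_0E03130 (2.59) and NCAS_0J00570 (2.49). NCAS_0E03130 rests on few reads, with 138 and 120 in WT CHX, against 16, 21, 3 and 6 in WT, and its call was lost without WT CHX replicate 1 (log2 fold change 2.53). These 12 gained 2.49 to 5.71 on the log2 scale, while 7.06% of the tested features were called at least 2-fold higher.

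Mating-type genes moved differently by type, and the types also differed in abundance. In S. cerevisiae, cells of mating type α keep the a-specific genes off with the repressor α2, a protein of short life, and switch the α-specific genes on with the activator α1. The α-specific receptor gene STE3, whose product binds a-factor, and SAG1, for α-agglutinin, were well expressed in WT with mean densities of 1.14 and 2.08, as the label MATalpha has it. The 5 a-specific genes found had mean densities of 0.00191 to 0.149 in WT. The genes of the pheromones themselves were not found by name and were not analysed here.

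All 5 a-specific genes passed the filter and were higher in WT CHX relative to the mRNAs, with a median log2 fold change of 1.84 against 0.07 over all mRNAs. ASG7, with a WT mean of 0.00191, passed the filter of 0.02 only through groups in which it is high, so its call is not separate support. AGA2 (NCAS_0A01800, chromosome 1, 349127 to 349393) had densities of 4.6 and 4.42 in WT CHX, against 0.0198, 0.00386, 0.02 and 0.0495 in WT, from 889 and 792 reads against 5, 1, 4 and 11. Its log2 fold change was 5.71 relative to the mRNAs (SE 0.37; limma, adjusted p = 2.36e-07) and 6.81 under the deposited scaling, the largest among the mRNAs on either scale. ASG7, which acts in pheromone signalling of a cells (NCAS_0I02890, chromosome 9, 537265 to 537891), had 0.240 and 0.257 in WT CHX, against 0.00337, 0, 0.00427 and 0 in WT, and 109 and 108 reads stood against 2, 0, 2 and 0. These genes were all but silent in WT and read in both treated libraries.

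STE2, the receptor for α-factor (NCAS_0C03840, chromosome 3, 777636 to 779069), had 0.560 and 0.521 in WT CHX, against 0.0412, 0.0367, 0.0466 and 0.0737 in WT. STE6, the exporter of a-factor (NCAS_0G03510, chromosome 7, 652949 to 656815), had 1.2 and 1.18 in WT CHX, against 0.151, 0.131, 0.138 and 0.174 in WT. BAR1, the protease that degrades α-factor (NCAS_0A12460, chromosome 1, 2461028 to 2462650), had 0.299 and 0.305 in WT CHX, against 0.0390, 0.0305, 0.0247 and 0.0370 in WT. AGA2 and STE6 were named by a rule that requires no overlap between the groups. Relative to the mRNAs the groups did not overlap in any of the 5 a-specific genes, as in 67.0% of all tested features. Their log2 fold changes relative to the mRNAs were 2.78 for ASG7, 1.84 for STE2, 1.55 for STE6 and 1.49 for BAR1, with limma adjusted p-values of 3.42e-07, 7.48e-07, 1.3e-08 and 1.39e-06. The pseudocount of 0.02 holds the values of the rarest down. For ASG7, voom on the recovered reads gave 5.56 and a pseudocount of 0.1 gave 1.19.

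The α-specific genes did not share this gain. STE3 had densities of 2.84 and 3 in WT CHX, against 1.14, 0.915, 1.16 and 1.35 in WT, a log2 fold change of 1.35 under the deposited scaling that left −0.00 relative to the mRNAs (SE 0.10; limma, adjusted p = 0.995). SAG1 had 2.92 and 3 in WT CHX, against 1.42, 1.32, 2.57 and 3.03 in WT, so that WT replicates 3 and 4 stood at about the treated level under the deposited scaling. SAG1 was called lower relative to the mRNAs (−0.76, SE 0.29; limma, adjusted p = 0.0389). SAG1 no longer passed when WT replicate 3 (−0.61) or 4 (−0.59), or either WT CHX replicate (−0.76 in both cases), was left out, and among replicates 1 and 2 alone SAG1 was at −0.28. The genes named HMLALPHA1 and HMLALPHA2, for the regulators α1 and α2, were higher by 0.55 and 0.50. Copies at the silent and the active locus share their sequence, so it is uncertain how reads were split between them, and the call of HMLALPHA1 was lost without WT CHX replicate 1 (0.41). This pair and AGA1 below were chosen after their values were seen.

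**Figure D2:**
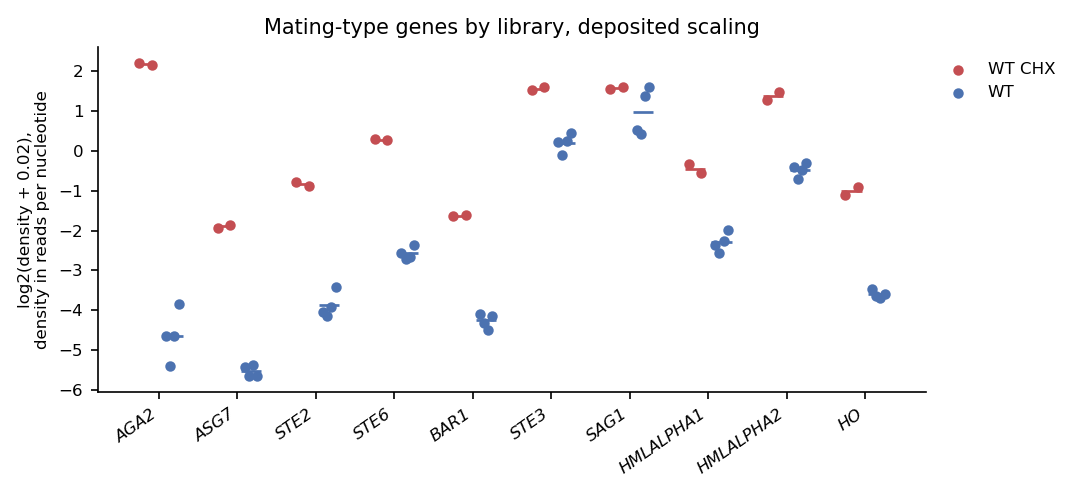
Densities of mating-type genes in each library on the log2(density + 0.02) scale under the deposited scaling, with WT CHX on the left of each pair (2 libraries) and WT on the right (4 libraries); points are libraries and bars are group means. AGA2, ASG7, STE2, STE6 and BAR1 are a-specific, and their treated libraries lie above all untreated ones, while SAG1 overlaps between the groups.

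As a list, genes shared by both mating types moved less. Of 25 haploid and pheromone-pathway genes 24 were tested, 11 were higher relative to the mRNAs and 2 lower. Their median was 0.26. The share higher in mRNAs of similar abundance is given below. HO, the endonuclease that starts mating-type switching (NCAS_0D00250, chromosome 4, 29569 to 31317), had 0.444 and 0.508 in WT CHX, against 0.0712, 0.0602, 0.0573 and 0.0625 in WT. Its log2 fold change relative to the mRNAs was 1.37 (SE 0.08; limma, adjusted p = 1.08e-07). HO is listed as mutated in this strain, yet reads were counted on it in all 6 libraries. AGA1, the anchor of a-agglutinin, gained 1.87, SST2, which damps pheromone signalling, 0.69, RME1, a repressor of meiosis, 0.58, and FAR1, which arrests the cell cycle in response to pheromone, 0.40. URA3, listed with the allele ura3-1, was at −0.27 and did not pass (limma, adjusted p = 0.44).

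Uptake and breakdown of amino acids held several of the largest gains, while the genes that make amino acids were split. Yeast cells on a rich medium keep many nitrogen-scavenging permeases and enzymes low. Of 16 amino acid permease genes 15 were tested, 10 were higher relative to the mRNAs and 3 lower (median 0.42). DIP5, the permease for glutamate and aspartate (NCAS_0D02260, chromosome 4, 421966 to 423759), had densities of 21.3 and 20.5 in WT CHX, against 1.35, 1.13, 1.33 and 1.51 in WT. PUT4, the proline permease (NCAS_0E02260, chromosome 5, 437115 to 438896), had 7.27 and 7.60 in WT CHX, against 0.525, 0.497, 0.406 and 0.510 in WT. Both genes were thus high in each treated library, and their log2 fold changes relative to the mRNAs were 2.60 (SE 0.13; limma, adjusted p = 3.25e-08) and 2.54 (SE 0.10; adjusted p = 6.8e-09). The peptide transporter gene PTR2 gained 1.45 and AGP2, a plasma membrane regulator of carnitine and polyamine uptake, 1.26. The 3 lower members were BAP3 (−0.38) and TAT1 (−0.35), permeases for branched-chain and aromatic amino acids, and MUP3 (−0.62), a low-affinity methionine permease.

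Among 12 tested genes of amino acid breakdown, 5 were higher and 2 lower. These shares of 41.7% and 16.7% compare with 33.9% and 24.8% over all mRNAs. Beside ARO10 and AAT1, the serine and threonine deaminase gene CHA1 gained 1.15 (limma, adjusted p = 6.15e-08), its activator CHA4 0.73, and ARO80, the activator of ARO10, 0.26. The transaminase genes BAT2 (−0.54) and ARO8 (−0.50), for branched-chain and aromatic amino acids, were lower, and both calls were lost with total mRNA reads as the factor. The list's median of 0.34 turned to −0.34 among replicates 1 and 2 alone. In nitrogen catabolite genes, which are held down while good nitrogen sources last, 11 of 22 tested were higher and 1 lower (median 0.44). The share higher is near that of mRNAs of similar abundance, given below. DUR3, the urea transporter, gained 1.64, UGA4, the GABA permease, 1.40, and CAR1, arginase, 0.76. Amino acid biosynthesis had 13 of 57 higher and 13 lower, with a median of 0.05.

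In sulphur amino acid metabolism 8 of 21 genes were higher and 5 lower, shares near the 33.9% and 24.8% of all mRNAs. The median of this list was 0.06. MET6, methionine synthase, had densities of 2.78 and 2.64 in WT CHX, against 0.767, 0.601, 0.311 and 0.354 in WT. Its log2 fold change of 1.12 relative to the mRNAs (limma, adjusted p = 0.0226) rested on the split among untreated libraries: it was 0.59 among replicates 1 and 2 alone, and MET6 no longer passed when WT replicate 3 (0.94), WT CHX replicate 1 (1.06) or WT CHX replicate 2 (1.18) was left out. CYS3, which makes cysteine from cystathionine, was lower at −0.91.

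Of 15 iron-regulon genes, 9 were higher and 2 lower (median 0.45), led by HMX1, heme oxygenase, at 1.93 (limma, adjusted p = 1.43e-07) and VHT1, the biotin transporter, at 1.57 (adjusted p = 7.75e-08). The lower ones were ATX1 (−0.78), a copper chaperone, and FET3 (−0.38), the ferroxidase of iron uptake. ACS1, acetyl-CoA synthetase, had 2.26 and 2.28 in WT CHX, against 0.229, 0.184, 0.108 and 0.116 in WT, and its log2 fold change relative to the mRNAs was 2.42 (SE 0.31; adjusted p = 4.83e-05). ACS1 is repressed by glucose, and 4 of 10 tested glucose-repressed genes were higher and 1 lower, a share near the 33.9% of all mRNAs. Their median of 0.22 turned to −0.08 with quantile normalization.

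Of 17 tested transcription regulators from a list of unstable mRNAs or proteins, 10 were higher and 1 lower. NRG1 and NRG2, repressors of glucose-repressed genes, gained 1.67 and 1.62. NRG1 had 1.28 and 1.29 in WT CHX, against 0.146, 0.104, 0.152 and 0.200 in WT. In the general stress list, 5 of 21 genes were higher and 3 lower, below the 33.9% and 24.8% of all mRNAs. HOR7, described above, and the cell-wall glycoprotein gene YGP1, at 1.5, were among the higher ones. Of 13 drug efflux genes 7 were higher and 1 lower, the lower one being the multidrug transporter gene PDR5 (−0.17). Sporulation genes had 7 of 11 tested higher relative to the mRNAs, with a median of 0.52. Besides SPO24, RMD6 and ISC10, both needed for sporulation, gained 2.02 and 0.71.

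Cell-cycle genes of mitotic exit and the core histones rose relative to the mRNAs, and genes of the G1/S transition were mixed. Of 17 genes expressed from G2 to early G1, 14 were higher relative to the mRNAs and 3 did not pass (median 0.49). DSE1, a daughter-cell gene that acts in cell separation (NCAS_0B04530, chromosome 2, 823022 to 824746), had 1.75 and 1.83 in WT CHX, against 0.280, 0.207, 0.295 and 0.308 in WT (log2 fold change 1.32, SE 0.10; limma, adjusted p = 6.04e-07). CTS1, the chitinase of cell separation, gained 1.16 and CDC5, the polo kinase, 0.88. In the G1/S list 2 of 18 genes were higher and 5 lower. The 2 were CDC6 (1.2), which loads the replicative helicase, and SWE1 (0.46), the kinase that delays mitosis; CDC21, thymidylate synthase, was lower at −0.92.

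All 9 histone genes found were tested, and 7 were higher and 2 lower. HTA1, for H2A (NCAS_0B02750, chromosome 2, 467476 to 467874), had 43.5 and 48.0 in WT CHX, against 9.12, 8.18, 8.92 and 9.19 in WT. Its log2 fold change was 1.00 relative to the mRNAs (SE 0.09; limma, adjusted p = 1.61e-06), in a gene among the most abundant. HTB1, for H2B, gained 0.81, the H4 genes HHF1 and HHF2 0.74 and 0.27, the H3 genes HHT1 and HHT2 0.70 and 0.45, and CSE4, the H3 of the centromere, 0.56. The 2 lower genes encode histones outside the core set: HTZ1, the H2A variant, at −0.97 and HHO1, the linker histone, at −0.50. HHO1 no longer passed once any of 5 libraries was left out: WT replicate 1 (−0.47), 2 (−0.44) or 3 (−0.40), or WT CHX replicate 1 (−0.42) or 2 (−0.57). H3 and H4 are each encoded by a pair of near-identical genes, so the split of reads between the copies is uncertain.

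The machinery of protein synthesis and folding was lower relative to the mRNAs and higher, by less than the typical mRNA, under the deposited scaling. The list of cytosolic ribosomal proteins held 107 genes: 97 were lower and 4 higher relative to the mRNAs, with a median of −0.69 that turned to 0.03 with quantile normalization and stood at 0.68 under the deposited scaling. Translation initiation had 17 of 27 lower (median −0.44), and elongation and termination 10 of 13 lower and 1 higher (−0.61). Of the aminoacyl-tRNA synthetases 16 of 17 were lower (−0.57). In that order, these medians were 0.92, 0.75 and 0.79 under the deposited scaling, and −0.12, −0.05 and −0.16 with quantile normalization. TEF2, for the elongation factor that brings aminoacyl-tRNA to the ribosome, had 93.3 and 96.4 in WT CHX, against 73.9, 60.2, 67.5 and 78.8 in WT, which was 0.44 on the deposited log2 scale and −0.93 relative to the mRNAs. The groups did not overlap on either scale, which the naming rule requires relative to the mRNAs. The direction of TEF2 depends on what it is set against. TIF1, for the helicase eIF4A, was at −0.82 relative to the mRNAs and at 0.54 under the deposited scaling. With quantile normalization neither TEF2 (−0.14) nor TIF1 (−0.12) passed.

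Chaperones had 24 of 28 lower and 1 higher relative to the mRNAs (median −0.72; 0.64 under the deposited scaling). SSA2, a cytosolic Hsp70, had 42.2 and 41.5 in WT CHX, against 45.3, 36.5, 39.2 and 42.9 in WT. Its groups overlapped under the deposited scaling (0.04; limma, adjusted p = 0.764), so SSA2 kept pace with the snoRNAs and fell behind the mRNAs (−1.33, SE 0.07; adjusted p = 3.25e-08). SSE2, an Hsp70 exchange factor, and HSP10, the mitochondrial co-chaperonin, were at −1.23 and −1.10; HSP10 was chosen after its value was seen. The 1 higher member was SSA3, an Hsp70 that is low without stress, at 1.21, with 0.280 and 0.263 in WT CHX, against 0.0359, 0.0414, 0.0400 and 0.0322 in WT. Proteasome subunits had 31 of 34 lower (−0.61; 0.74 under the deposited scaling), with PRE6, for a subunit of the core particle, at −0.98 relative to the mRNAs. Decapping and 5′ decay factors had 11 of 17 lower and 2 higher, with LSM6, for a subunit of the Lsm ring, at −1.10 relative to the mRNAs. The 2 higher ones were DCP2 (0.26), the decapping enzyme, and EDC3 (0.31), which assists it.

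Glycolysis had 10 of 14 lower relative to the mRNAs, with a median of −0.74 that turned to 0.05 with quantile normalization and was 0.63 under the deposited scaling. PDC1, pyruvate decarboxylase, had 155 and 156 in WT CHX, against 131, 113, 123 and 135 in WT, and TPI1, triosephosphate isomerase, 59.6 and 62.7 in WT CHX, against 50.7, 43.0, 45.0 and 47.3 in WT. Relative to the mRNAs PDC1 was at −1.05 and TPI1 at −0.97, and under the deposited scaling at 0.32 and 0.40. The deposited call of PDC1 was lost without WT CHX replicate 1 (0.32) or 2 (0.31), and with quantile normalization neither gene passed as lower (−0.00 and −0.14). Ribosome biogenesis was close to the body of mRNAs, with 10 of 84 lower and 1 higher and a median of −0.09.

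**Figure D3:**
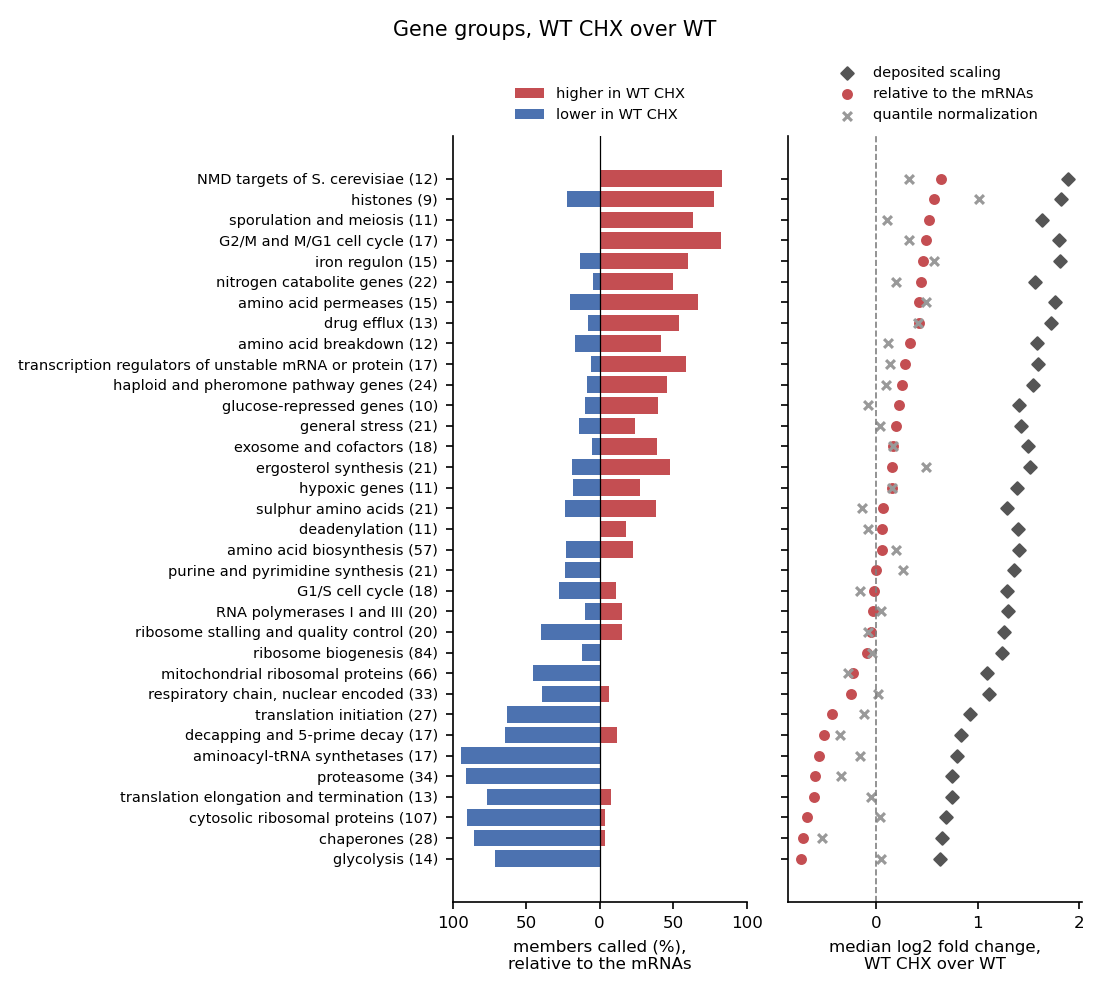
Gene groups with at least 9 tested members, ordered by their median relative to the mRNAs; the number tested is in parentheses. The left panel gives the percent of members called higher or lower in WT CHX relative to the mRNAs, and the right panel the median log2 fold change of WT CHX over WT under the deposited scaling, relative to the mRNAs and with quantile normalization. Deposited medians are above 0 in all groups, while cytosolic ribosomal proteins are at −0.69 relative to the mRNAs and at 0.03 with quantile normalization.

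Several of the groups that were lower hold mostly abundant mRNAs, and several that were higher hold rarer ones. When the mRNAs were divided into 10 parts by mean density, the median log2 fold change relative to the mRNAs was 0.40 in the lowest part, with 49.7% called higher and 3.67% lower, and −0.60 in the highest part, with 10.1% higher and 74.7% lower. Across mRNAs, which are not independent replicates and share their libraries, Spearman's rho between mean density and log2 fold change was −0.51 (n = 5446), and between length and log2 fold change 0.16. All 107 ribosomal protein genes, 13 of 14 glycolytic genes and 29 of 34 proteasome genes lie in the top 2 of these 10 parts. Other lowered groups were less abundant: mitochondrial ribosomal proteins had 30 of 66 lower with 0 members in the top 2 parts, and of the 17 decapping factors, 11 of them lower, 7 lie there. Of the 9 histone genes 7 lie there too, and 7 of the 9 were higher. Parts are numbered from 1, the lowest. Nitrogen catabolite genes had a median part of 3.5 and 50% higher, against 53.7% and 49.4% in parts 3 and 4. Haploid and pheromone-pathway genes had 5.5 and 45.8%, against 44.5% and 32.5% in parts 5 and 6. Sporulation genes had 2 and 63.6%, against 45.5% in part 2, and unstable regulators 3 and 58.8%, against 53.7%. Genes of G2 to early G1 had 5 and 82.4%, against 44.5% in part 5. The part of abundance in the group results was not tested.

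**Figure D4:**
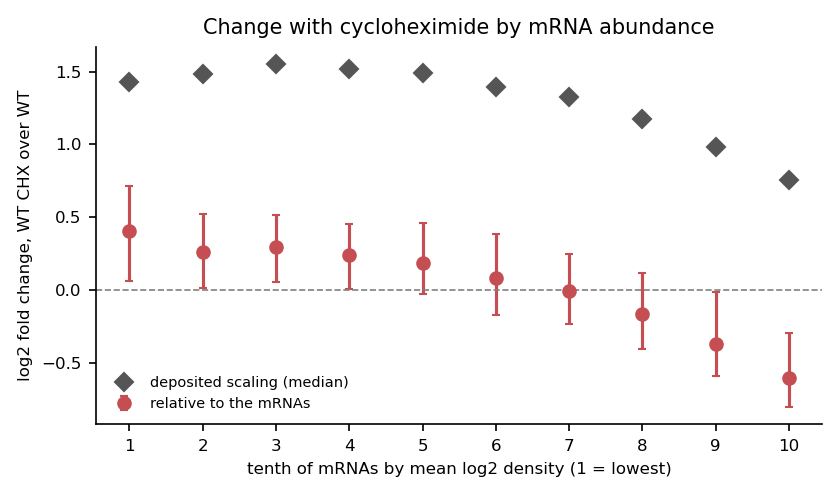
Log2 fold change of WT CHX over WT for mRNAs in 10 equal parts by mean log2 density, from the lowest on the left to the highest on the right. Circles are medians relative to the mRNAs with bars between the quartiles, and diamonds are medians under the deposited scaling; the first run between 0.40 in the lowest part and −0.60 in the highest.

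A few ribosomal protein genes went against the rest of their list. RPL22B (NCAS_0C03740, chromosome 3, 754495 to 755140) had densities of 11.3 and 12.1 in WT CHX, against 2.38, 2.32, 2.54 and 2.71 in WT. Its partner copy RPL22A had 33.3 and 36.1 in WT CHX, against 19.9, 18.3, 16.6 and 15.8 in WT. Relative to the mRNAs RPL22B gained 0.86 (SE 0.08; limma, adjusted p = 4.02e-06), while RPL22A was at −0.39 (adjusted p = 0.0633). RPS9A gained 0.78 with its partner RPS9B at −0.80, and RPS14B and RPL18B gained 0.32 and 0.25. RPL17A, an example of the 97 lower ones, was at −0.97. In S. cerevisiae the proteins Rpl22 and Rps14 hold down the splicing of RPL22B and RPS14B pre-mRNA. The densities span introns, copies of one protein are near-identical, so the split of reads between copies is uncertain, and the call of RPL18B was lost without either WT CHX replicate 1 (0.25) or WT CHX replicate 2 (0.25). RPL22A and RPS9B were chosen after their values were seen.

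In translation factors ANB1 stood apart in the same way, as the 1 higher member of the elongation list. It encodes the form of eIF5A made without oxygen and had 5.99 and 6.41 in WT CHX, against 1.33, 0.973, 1.39 and 1.2 in WT (0.98 relative to the mRNAs; limma, adjusted p = 5.3e-06).

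Genes that are NMD targets in S. cerevisiae were higher as a list. Of 12 tested, 10 were higher relative to the mRNAs, with a median of 0.63 against 0.07 over all mRNAs. With quantile normalization it was 0.32, against −0.03. CPA1, for a subunit of the carbamoyl phosphate synthetase of arginine synthesis, whose mRNA carries an upstream reading frame (NCAS_0B00800, chromosome 2, 121672 to 122871), had 10.9 and 11.5 in WT CHX, against 2.45, 2.2, 2.06 and 2.32 in WT. Its log2 fold change relative to the mRNAs was 0.94 (SE 0.06; limma, adjusted p = 1.6e-07), and that of ALR1, the magnesium transporter gene, was 0.63 (SE 0.07; adjusted p = 8.24e-06). The telomerase genes EST2 and EST1 gained 0.85 and 0.79. The other 2, STN1 (0.02) and FZF1 (0.01), did not pass. NAM7 was at −0.17 (adjusted p = 0.101).

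Unannotated transcripts split by class. Of 768 XUTs tested, 467 were higher relative to the mRNAs and 20 lower (median 0.63, or 0.18 with quantile normalization), and of 852 CUTs 314 were higher and 52 lower (median 0.37, which turned to −0.07 with quantile normalization). These counts are not support for a gain, since 478 of the tested XUTs and 424 of the tested CUTs had a WT mean under the filter of 0.02 and passed it through other groups. Without a filter the medians were 0.57 for XUTs and 0.25 for CUTs, and with a floor of 0.1 they were 0.65 and 0.70. SUTs had 8 of 117 higher and 44 lower (median −0.38, or −0.72 with a floor of 0.1, and 0.58 under the deposited scaling). Of the tested SUTs, 14 had a WT mean under the filter. Where a CUT overlapped a XUT on its strand, 186 of 330 were higher (median 0.62), and where it did not 128 of 522 (median 0.22). Such overlapping features share their reads, so they are not separate observations. XUTs opposite an mRNA had a median of 0.67 (312 of 473 higher) and the others 0.56 (155 of 295); these differences between subsets were not tested.

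Among the unannotated transcripts with the largest gains was XUT0250 (chromosome 1, 2908991 to 2909606, plus strand), which covers CUT0315 (2908995 to 2909525) and lies between VMA13 and ERV2. XUT0250 had 5.43 and 5.70 in WT CHX, against 0.197, 0.221, 0.241 and 0.228 in WT, a gain of 3.20 relative to the mRNAs (SE 0.13; limma, adjusted p = 1.3e-08). XUT0080 (chromosome 1, 862156 to 862445, minus strand) had 99 and 80 reads in WT CHX, against 1, 1, 0 and 2 in WT, and its neighbour SUT014 (861773 to 861991, same strand) had 58 and 48 reads in WT CHX, against 5, 2, 2 and 2 in WT. They gained 3.37 and 2.41. XUT0182 (chromosome 1, 2034617 to 2034924), antisense to the uracil permease gene FUR4, gained 3.06 with 87 and 95 reads in WT CHX, against 2, 0, 4 and 2 in WT. SUT123, antisense to PPN2, gained 1.55. XUT0080, SUT014 and XUT0182 thus had at most 5 reads in any WT library, while XUT0250 and CUT0315 (3.21) had over 100. The WT means of XUT0080 (0.00387), SUT014 (0.0142) and XUT0182 (0.00801) were under the filter of 0.02. These features passed it only through groups in which they are high, so their calls are not separate support.

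Loss under the deposited scaling was rare. Of the 11 features called lower, 3 were snoRNAs, 7 were CUTs or XUTs and ATG41, an autophagy gene, was the 1 mRNA. ATG41 had 0.150 and 0.144 in WT CHX, against 0.260, 0.242, 0.197 and 0.186 in WT (−0.52 deposited, limma adjusted p = 0.0188; −1.71 relative to the mRNAs), and the deposited call did not survive leaving out WT replicate 1 (−0.44), WT CHX replicate 1 (−0.54) or WT CHX replicate 2 (−0.49). It was chosen after its value was seen. XUT0165 (chromosome 1, 1796696 to 1797102, plus strand), which shares its reads with CUT0214, had 0.244 and 0.253 in WT CHX, against 1.24, 1.15, 0.375 and 0.511 in WT. It was lower in both treated libraries than in any untreated one, by −1.47 under the deposited scaling and −2.74 relative to the mRNAs (limma, adjusted p = 0.0127 and 0.00059). The deposited calls of XUT0165 (−1.45 and −1.5) and CUT0214 (−1.35 and −1.35) were lost without WT CHX replicate 1 or 2. CUT0750, antisense to USE1, and CUT0479, antisense to COX4, were lower by −1.17 and −0.86 under the deposited scaling, with 9 and 8 reads in WT CHX, against 44, 34, 18 and 32 in WT, for CUT0750.

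The median snoRNA, snRNA, SUT and mitochondrially encoded mRNA lagged behind the mRNAs. Relative to the mRNAs 31 of 37 snoRNAs were lower (median −1.40), as were all 3 snRNAs (−1.56), and since the deposited scaling holds the snoRNAs level this restates the rise of the mRNAs. SUT137 had 22.2 and 20.9 in WT CHX, against 22.5, 21.5, 41.5 and 38.7 in WT, and was at −1.83 relative to the mRNAs, or −1.43 among replicates 1 and 2 alone. Among the mRNAs with the largest losses relative to the body of mRNAs were ATP8 (−1.83), a mitochondrially encoded ATP synthase subunit, NCAS_0C03020 (−1.72), NCAS_0E00690 (−1.58), POL30 (−1.40), the sliding clamp of replication, NCAS_0A14630 (−1.39), NCAS_0A02300 (−1.37) and AHP1 (−1.33), a peroxiredoxin. Under the deposited scaling these ran from −0.58 to 0.04 and none passed.

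Of 8 mitochondrially encoded mRNAs 7 were tested, and 3 were lower relative to the mRNAs: ATP8, ATP6 (−1.15) and ATP9 (−0.80), all for ATP synthase. Mitochondrial ribosomes are not a target of cycloheximide. The median of the 7 was −0.59, and −1.19 among replicates 1 and 2 alone, where mitochondrial RNA took 1.26% and 1.27% of the WT reads, against 0.640% and 0.736% in WT replicates 3 and 4. The call of ATP9 was lost without WT CHX replicate 1 (−0.74) or 2 (−0.87). Nuclear tRNA genes had 22 of 262 higher and 23 lower (median 0.15). Many tRNA genes are copies of one another, so reads may be split among them.

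The response of WT was also set against that of upf1 cells, to ask which changes with cycloheximide differ without Upf1. The difference was tested as upf1 CHX over upf1 taken from WT CHX over WT, relative to the mRNAs. A positive difference means a higher fold change in WT, whatever the sign of each. Limma called it positive for 1009 features (13.4%) and negative for 39 (0.519%), and of the 2656 features higher in WT 861, or 32.4%, were among the 1009. For mRNAs the counts were 661 (12.1%) and 35 (0.643%). The count of negative differences depended on the libraries and ran from 4 to 49 as each was left out. It was 4 without upf1 CHX replicate 2, 10 without WT CHX replicate 1 or WT CHX replicate 2, 16 without upf1 CHX replicate 1 and 25 without upf1 replicate 2.

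NCAS_0G02180 (chromosome 7, 390421 to 390525) gained 2.68 in WT and −0.25 in upf1, a difference of 2.93 (SE 0.09; limma, adjusted p = 2.94e-09). RMD6 gained 2.02 in WT and −0.54 in upf1, MAK31, for a subunit of an N-terminal acetyltransferase, 1.23 and −0.73, and PPT2, a mitochondrial phosphopantetheine transferase, 0.87 and −1.09. Each of these 4 genes was above 0 in WT and below 0 in upf1. They were named for the largest positive differences among mRNAs, which favours such a split in sign. Densities in upf1 cells are not given here, so a changed response and a changed untreated level cannot be told apart. The difference was 1.47 for ISC10, 0.93 for ALR1 and 0.85 for CPA1, the last pair from the list of NMD targets, and 9 of the 12 tested NMD targets had a positive difference.

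Among the a-specific genes 4 of 5 had a positive difference that passed. STE2 gained 1.84 in WT and −0.02 in upf1 (difference 1.86; limma, adjusted p = 4.7e-05), BAR1 1.49 and 0.20, STE6 1.55 and 0.31, and HO 1.37 and −0.21. AGA2 gained 5.71 in WT and 4.49 in upf1, and the difference of 1.21 (SE 0.52) did not pass (adjusted p = 0.172), although it is close in size to those of STE6 (1.24) and BAR1 (1.29). The difference for ASG7 was 1.73, with gains of 2.78 and 1.05. ASG7 is among the 4 and passed the filter only through groups in which it is high, so its call is not separate support. Among the genes of amino acid use PUT4 gained 2.54 in WT and 3.13 in upf1 (difference −0.58; adjusted p = 0.0123), AAT1 2.82 and 3.23 (−0.41; adjusted p = 0.00166), and DIP5 2.60 and 2.77, a difference that did not pass (−0.17; adjusted p = 0.645). The call of PUT4 was lost without WT CHX replicate 1 (−0.57), upf1 CHX replicate 1 (−0.59) or upf1 CHX replicate 2 (−0.58). ARO10 went the other way, with 3.39 and 2.07. Among tested nitrogen catabolite genes 9 of 22 had a positive difference that passed and 0 a negative one. In sulphur amino acid metabolism the counts were 6 and 2 of 21, and in amino acid biosynthesis 5 and 0 of 57. They were 1 and 1 for both the 15 permeases and the 12 breakdown genes. Over all mRNAs 12.1% were positive and 0.643% negative.

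**Figure D5:**
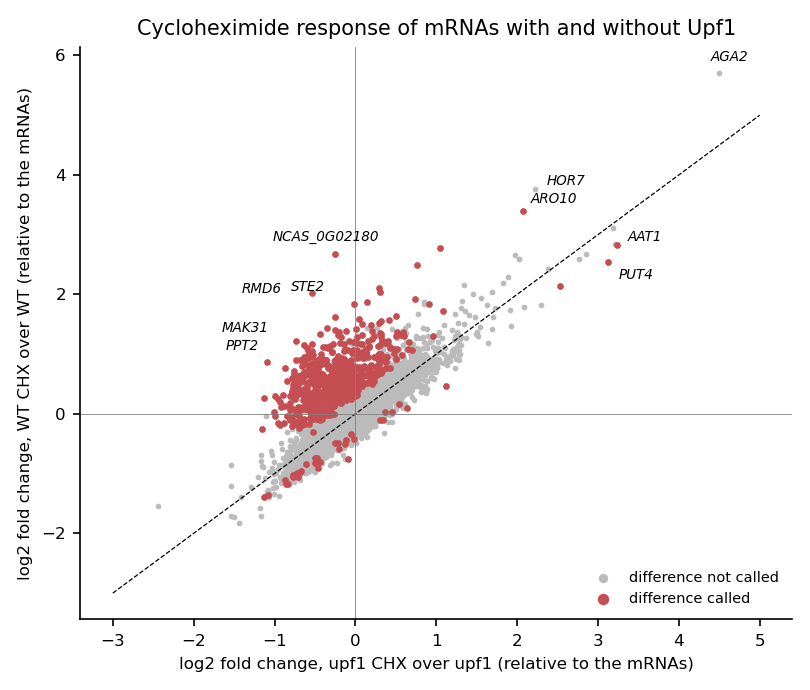
Log2 fold change of each tested mRNA relative to the mRNAs, WT CHX over WT on the vertical axis and upf1 CHX over upf1 on the horizontal axis, with a dashed line where both are equal. Red points are the mRNAs whose difference limma called, 661 above the line and 35 below; AGA2 lies at 5.71 in WT and 4.49 in upf1, and NCAS_0G02180 at 2.68 and −0.25.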

How the data were processed

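Strand-specific total RNA-seq of 14 libraries was analysed from 1 deposited table. Each value is a density (a signal, reads per nucleotide) that the authors had divided by a size factor and by feature length. This was read from the deposited values, which are whole multiples of 1 read within 0.001 reads, and the size factors match a median of ratios over the 37 snoRNAs within 0.0315 on the log2 scale. Per the submitters' processing notes, DESeq2, featureCounts 2.0.0, HISAT2 2.2.0 and Trim Galore were used, in roles not given here. Ribosomal RNA was depleted and ERCC RNA added, per the labels' protocols; the spike-in was not analysed here. No source used here gives the build of the genome.

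Of 8602 lines, 259 repeated the position of another and were dropped. Groups came from the sample titles. Limma 3.58.1 (R 4.3.3, statmod 1.5.0) was fitted to log2(density + 0.02) over all 14 libraries with 5 group means, trended and robust variance moderation and Benjamini-Hochberg adjustment over 7518 features with a threshold of 0.05. Fold changes are on the log2(density + 0.02) scale, which understates rare features. For values relative to the mRNAs, each library was divided by its median mRNA ratio. Shares of reads were tested by exact permutation. The scripts were tested on simulated data.

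The members and gene lists were chosen with earlier results of these data known. Named genes were, among called features with no overlap between the groups, where the higher mean reaches the median of their class, the 12 mRNAs with the largest change each way, 2 or 3 of each other class, up to 4 per list each way, the 6 lowest features under the deposited scaling, 4 mRNAs each way for the difference between strains, and HO, URA3 and NAM7. Not every gene the rule takes is named, and other list members in the text were chosen after their values were seen. Of 5599 mRNAs 5588 were found in the RefSeq table and 4484 had a symbol. Alternatives covered the pseudocount, the filter, the libraries fitted, a replicate block, replicates 1 and 2 against 3 and 4, voom, the mRNA factor and leaving out each library.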

Additional observations from a re-analysis of the deposited data

Results flagged for a closer look

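The 4 untreated WT libraries held 3 genes in which replicate 2 lay far below the others under the deposited scaling, at a density of 3.90 for RPL18B, 7.88 for HTB1 and 6.47 for HHT2. The screen covered the 4 WT libraries of 103 named features and 9 read shares. Chance flags about 1 in 20 such groups, but these 3 flags fall in 1 library and share its scaling. They cannot be counted against that rate. The log2 median mRNA ratio of WT replicate 2 was −0.64, against −0.38, −0.55 and −0.36 in WT replicates 1, 3 and 4. The cause of the flags was not tested. All 3 stayed higher in WT CHX relative to the mRNAs with that library left out.

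For 23 genes in the text the response to cycloheximide differed between WT and upf1 cells by limma's test of the difference itself, given here as WT minus upf1 on the log2 scale relative to the mRNAs. The mating-type and related genes ASG7 (1.73), STE2 (1.86), STE6 (1.24), BAR1 (1.29), AGA1 (1.73) and HO (1.57) had a higher fold change in WT. So did RMD6 (2.56), ISC10 (1.47), MAK31 (1.96), PPT2 (1.96), NCAS_0G02180 (2.93) and NCAS_0J00570 (1.73). ALR1 (0.93), CPA1 (0.85), VHT1 (1.15), ARO10 (1.32), YGP1 (1.42), ANB1 (0.95), SSA3 (0.84) and CSE4 (0.77) were also higher in WT. ASG7 and AGA1 passed the filter only through groups in which they are high, so their calls are not separate support. PPT2 and ISC10 were above 0 in WT and below 0 in upf1, with larger sizes in upf1 (0.87 and −1.09; 0.71 and −0.76). The fold change was lower in WT for AAT1 (−0.41) and PUT4 (−0.58), which gained in WT, and for CYS3 (−0.44), which was at −0.91 in WT and −0.46 in upf1. The difference for SSA3 was lost without WT CHX replicate 1 (0.78) or upf1 CHX replicate 2 (0.77), and that for CSE4 without WT CHX replicate 2 (0.74) or upf1 CHX replicate 2 (0.73).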

How the results depend on the processing

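The deposited count of 11 lower features was 7 with a density floor of 0.1, 18 with a term for replicates 1 and 2 against 3 and 4, 25 among replicates 1 and 2 alone and 10 to 17 as each library was left out; the higher count then ran from 6804 to 7087. Relative to the mRNAs, total mRNA reads gave 4544 higher and 576 lower, quantile normalization gave 1533 higher, and leaving out a library gave 2050 to 2635 and 1182 to 1507. For the difference between strains, quantile normalization gave 525 and 105, total mRNA reads 4 lower, the term for replicates 201 lower, replicates 1 and 2 alone 364 lower, and leaving out a library 695 to 1018 and 4 to 49. Replicate numbers pair the libraries by number alone. The difference of replicate 1 minus 2 in WT correlated at 0.0257 with that in WT CHX, over the 7518 tested features. With the replicate block, 7127 features were higher and 19 lower under the deposited scaling, 2932 and 1805 relative to the mRNAs, and 1259 and 224 for the difference. Signs turned for NCAS_0E00690 under the deposited scaling (0.27 with the replicate term), and relative to the mRNAs for STE3 (0.12 with the block, the term or replicates 1 and 2 alone, 0.41 with total mRNA reads), NAM7 (0.23 with total mRNA reads) and ATP9 (0.014 with quantile normalization). The tRNA read share difference was 0.00424 percentage points among replicates 1 and 2 alone and ran from −0.00636 to 0.00664 as each library was left out. The cause was not tested. Voom gave 7064 and 10, 2743 and 1552, and 1215 and 50. The edgeR test on recovered reads was not run. The treated group has 2 libraries, replicates 1 and 2, which limits the precision for features with few reads.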
